A study of Drosophila melanogaster with 12 samples.

Results

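m6A peaks annotated to 3’ UTRs were described in adult *Drosophila* males mutant for *Mettl16*, a methyltransferase gene, and in *w1118* control males. The members were all peaks with a 3’ UTR annotation in the list of peaks called in *Mettl16* mutants, 13377 of 21991 rows in 10327 genes, and all rows with that annotation in the table of peaks compared between the genotypes, 2008 of 3088 rows in 1885 genes. Both groups were whole adult males, the mutants of the genotype *Mettl161-9*, which carries a small CRISPR/Cas9 deletion in exon 1 of *Mettl16*, and the controls of the strain *w1118*. RNA of each library was pooled from many males, and an age was not given. The mutants are sterile and represent a single allele, so differences between the 2 lines at other loci cannot be told apart from the loss of *Mettl16*. For each genotype 3 immunoprecipitated (IP) and 3 input libraries were sequenced.

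N6-methyladenosine (m6A) is a methylated base that a nuclear writer complex around Mettl3 and Mettl14 places on mRNA, and that YTH-domain reader proteins bind. In mammals many m6A sites lie near the stop codon and in the 3’ UTR, the part of an mRNA after the stop codon, which holds binding sites for regulators of stability, translation and localization and ends at the cleavage and polyadenylation site. METTL16 is a separate enzyme, known in mammals to methylate U6 snRNA and hairpins in the 3’ UTR of the S-adenosylmethionine synthetase mRNA *MAT2A*. In MeRIP-seq, an antibody captures RNA fragments that carry m6A, and a peak is a stretch where IP reads exceed input reads. Its enrichment is the log2 ratio of IP to input.

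Each peak had 1 value for the 3 replicates together, so peaks had no replicate spread and no test of their own is given. The differential table lists rows with a P up to 0.0490 in exomePeak, the peak caller, and peaks above that P are not described. How deeply the IP libraries were sequenced is not known from these files. Expression of the host genes was measured in 3 input libraries per genotype, with depths of 5.32 to 6.30 aligned gigabases in mutants and 6.13 to 6.48 in *w1118*. Correlations between libraries were 0.991 to 0.994 within and 0.946 to 0.955 between genotypes. *Mettl16* itself (CG7544) was at 0.430, 0.285 and 0.232 FPKM in mutants, against 0.971, 0.824 and 1.19 FPKM in *w1118*. The summed FPKM of the testis markers *ProtA*, *dj* and *Mst98Ca* was 340.1 to 409 in mutants, below 635 to 682 in *w1118*. The accessory gland markers *SP*, *Acp36DE* and *Acp26Aa* summed to 824 to 1020 FPKM in mutants and 1376 to 1472 in *w1118*. All 6 of these markers were lower in mutants (adjusted p of 3.0e-05 to 0.0045 from limma). The 2 fat body markers *Lsp2* and *Fbp1* were higher. Of 34 tested fat body and metabolism genes with a 3’ UTR peak, 6 were higher and 7 lower. Of all tested genes with a 3’ UTR peak, 24.1% were higher and 26.1% lower. The muscle and neuron markers did not pass the test. In whole bodies, fewer cells of a type and less RNA per cell cannot be told apart.

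The 3’ UTR peaks were the most numerous class, and their median enrichment was the second lowest of the 6 annotation classes. Their log2 enrichment had a median of 2.28, quartiles of 1.60 and 3.02, and a range of 0.19 to 9.32. Peaks in 5’ UTRs had a median of 2.85, those in non-coding RNA exons of 2.74, those in introns of 2.96, those without annotation of 2.32 and those in coding exons of 1.26. A 3’ UTR peak spanned a median of 238 bases from its first to its last base, against 719 for a 5’ UTR peak. The medians of the other 4 classes lay close to it, from 237 bases without annotation to 245.5 in introns. Only 3.91% of 3’ UTR peaks spanned more than 1000 bases, against 42.8% of 5’ UTR peaks, where a span can cross introns. Of the 3’ UTR peaks, 12901 (96.4%) had an FDR under 0.05 in the deposited list, beside 94.0% of all peaks in it. Medians by chromosome arm lay between 2.22 on 2R and 2.32 on the X, with 2.06 on chromosome 4, which held 124 peaks.

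The called 3’ edge of most 3’ UTR peaks was the annotated end of the transcript, and those peaks were the stronger ones. Only this edge was measured, so where in a peak the m6A lies, and how far from the stop codon, is not known from it. The last base of a peak was compared with the annotated 3’ end of the transcript that the list assigns to it, which could be looked up for 13244 of the 13377 peaks. In 7726 peaks (58.3%) both were the same base. The median log2 enrichment of these was 2.54 (quartiles 1.956 and 3.20). The 1360 peaks that stopped 1 to 100 bases before the end had a median of 1.61, and the 1475 that stopped over 100 and up to 1000 bases before it of 1.41. Another 1805 peaks (13.6%) reached past the end of the assigned transcript, with a median of 2.48. Only 83 peaks went past the outermost annotated end of their gene. Whether the peak caller can extend a peak beyond annotated exons was not examined, so the share of exact matches may in part reflect how peaks are called. The difference was also seen among peaks of like length. Those over 150 and up to 300 bases long had a median of 2.56 at the end (3982 peaks) and of 1.48 before it (1456 peaks), and those over 500 and up to 1000 bases had 3.22 (493 peaks) and 2.47 (427 peaks).

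**Figure D1:**
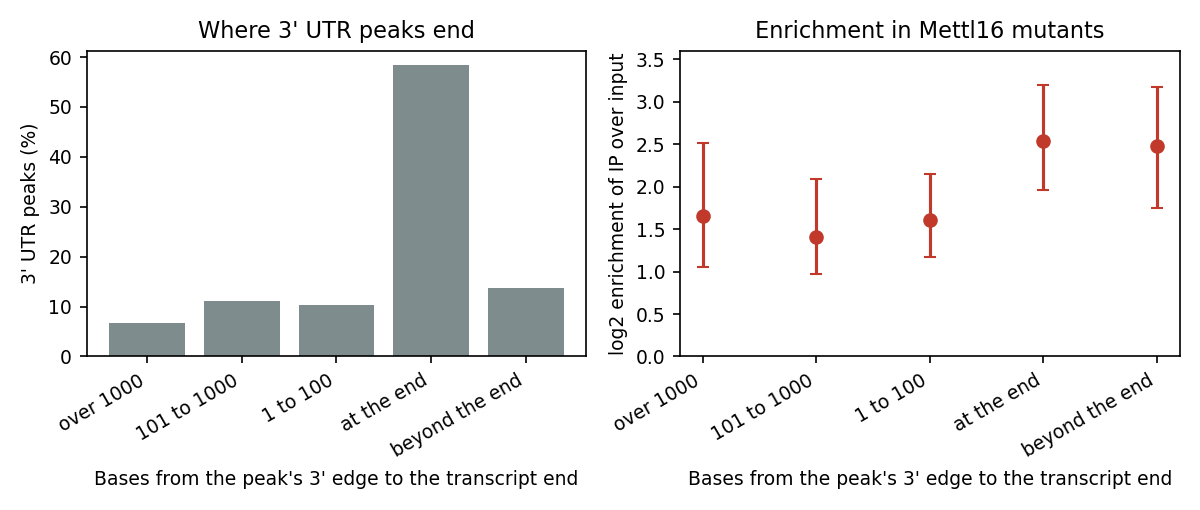
Left, share of 3’ UTR peaks in Mettl16 mutants (%) by the number of bases from the 3’ edge of the peak to the annotated end of its transcript. Right, median log2 enrichment of IP over input in the same bins, with bars from the lower to the upper quartile over peaks. 58.3% of the peaks ended exactly at the transcript end, with a median of 2.54, against 1.61 just before it.

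The same pattern held within genes. Of 945 genes with at least 1 peak at the transcript end and at least 1 that stopped before it, the highest peak at the end exceeded the highest one before it in 785 (83.1%), with a median difference of 1.17 on the log2 scale. Of 2939 genes with peaks in both UTRs, the 3’ UTR peak was the higher one in 1430 (48.7%), with a median difference of -0.04 on the log2 scale. Of 1185 genes with peaks in the 3’ UTR and a coding exon, the 3’ UTR peak was higher in 969 (81.8%), with a median difference of 1.22. For 6754 genes (65.4% of the 10327) the list held a 3’ UTR peak and neither a 5’ UTR nor a coding exon peak. These are descriptions of 1 set of called peaks, in which peaks of a gene share the same input reads.

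Most genes with a 3’ UTR peak carried a single one, and the 3 genes with the most are given here. A single peak was called in 8461 genes (81.9%), 2 in 1276 genes, and 3 or more in 590. *mamo*, which encodes a BTB zinc finger transcription factor of the germline, had the most, 19 peaks on the X within 23.3 kb (13846116 to 13869430), with log2 enrichments of 0.83 to 4.22 and a median of 3.07. *mei-P26*, a TRIM-NHL translational repressor that promotes differentiation of germline cysts, had 16 within 18.4 kb of the X (0.88 to 4.04, median 2.80). *Imp*, which binds mRNA 3’ UTRs and acts in neural stem cells and the testis, had 15 within 8.46 kb of the X (1.64 to 4.52, median 3.16). Some rows of *Imp* overlap each other, such as 10795728 to 10796388 and 10795729 to 10796292, so its 15 are not all separate stretches. Its rank depends on this, since another 2 genes had 14 rows. None of *mamo*, *mei-P26* and *Imp* had a row in the differential table, and 1 of the 19, 1 of the 16 and 0 of the 15 peaks ended at the end of the assigned transcript. *Imp* was at 7.52, 7.97 and 8.29 FPKM in mutants, against 12.6, 10.9 and 10.6 FPKM in *w1118*, with no overlap (log2 fold change -0.47, standard error 0.08, adjusted p = 0.0016 from limma). *mamo* and *mei-P26* did not pass the test.

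The strongest 3’ UTR peak lay in *CG11458* (3L, 20905795 to 20906331), with a log2 enrichment of 9.32. Other strong peaks were those of *eIF4B*, a cofactor of translation initiation (3L, 27842669 to 27856568, 7.61) and *TTLL3B*, a tubulin glycylase (2L, 6735357 to 6736149, 7.36). The peak of *eIF4B* spans 13900 bases and reaches past the end of its assigned transcript. In the differential table the peaks of *CG11458* and *TTLL3B* had log2 fold changes of -0.49 and -0.41, while that of *eIF4B* had 2.25. *CG40439* (2L, 22797519 to 22797696) and *CG4038* (2R, 21095958 to 21097305) had 6.70 and 6.64. *CG14742* (3R, 12214588 to 12215659, 7.17) and *Cog1*, a Golgi tethering subunit (3R, 12214658 to 12215823, 7.00), lie on opposite strands, and their peaks cover almost the same bases.

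Such overlaps were common. Of the 13377 rows, 1969 (14.7%) shared bases with a 3’ UTR peak of another gene on the opposite strand, in 1012 pairs, and the 2 values of a pair differed by a median of 0.46 on the log2 scale. Another 454 pairs of overlapping rows belonged to the same gene, so rows are not all independent. The library protocol marks strand, but whether the peak caller used it is not given in the sources used here, so such pairs cannot be told apart from 1 peak counted for both genes. Overlapping rows had a median enrichment of 2.20 and the others of 2.30. Among the genes named below, mutant peaks of *ND-B8*, *Use1*, *Pabp2*, *p24-2* and *nos* were in such overlaps.

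3’ UTR peaks were found in genes of all levels, and their median enrichment was highest in genes under 1 FPKM. A 3’ UTR peak was listed for 6.81% of the 8396 genes under 1 FPKM, for 57.4% of those at 1 to 5, 82.6% at 5 to 20, 91.1% at 20 to 100 and 86.8% at 100 or more. The median log2 enrichment was 2.77 for peaks in genes under 1 FPKM and 2.27, 2.19, 2.36 and 2.13 in the bins above. Genes under 1 FPKM have few reads, and the 6.81% with a called peak are a selected part of them. The part of this selection in their higher median was not tested.

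Between the genotypes, small decreases outnumbered small increases. Of the 2008 listed 3’ UTR rows, 1225 (61.0%) had a log2 fold change of enrichment below 0 and 783 above 0, with a median of -0.24, quartiles of -0.47 and 0.35 and a range of -3.16 to 6.07. Among the 973 rows with an FDR under 0.05, 582 (59.8%) were below 0. Of all 3088 rows of the table, 1677 (54.3%) were below 0. The share was 43.6% among 5’ UTR rows, 25.4% among coding exon rows, 62.3% among rows in non-coding RNA exons, 53.8% among intron rows and 56.1% among rows without annotation, and these differences between annotations were not tested. Of the 3’ UTR rows, 1832 (91.2%) lay within 1 of 0. At P under 0.05 and a change over 1 in size, 113 rows in 109 genes were decreased (5.63% of 3’ UTR rows, where 6.02% of all rows were) and 63 rows in 62 genes were increased (3.14%, where 4.4% of all rows were). An FDR under 0.05 was held by 70 of the decreased and 46 of the increased rows. The share of decreased rows was 9.47% on 2L (41 of 433) and 3.30% to 5.26% on 2R, 3L, 3R and the X. Increased rows made up 4.62% on 2L (20 of 433) and 1.07% on 3R (5 of 466).

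Rows of highly expressed hosts were the ones that were not mostly below 0. Of the 224 rows in genes of at least 100 FPKM, 47.3% were below 0, with a median of 0.13. In genes of 1 to 5, 5 to 20 and 20 to 100 FPKM, 67.2%, 62.0% and 62.3% were below 0, with medians of -0.45, -0.31 and -0.23. Position made little difference to the fold change, with medians of -0.25 at the transcript end and -0.30 at 1 to 100 bases before it.

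The 12 largest decreases with an FDR under 0.05 and a host of at least 1 FPKM ranged from -2.92 to -1.99 on the log2 scale. The first was in *CG1307* (3R, 6656030 to 6656178, -2.92), followed by *CG13077* (2L, 19567183 to 19567330, -2.74), *CG43924* (2L, 15710579 to 15710723, -2.60) and *SC35*, an SR splicing factor (2L, 12431075 to 12431223, -2.52). *CG8858* (2R, 12192374 to 12192613) had -2.46 and *CG10869* (2L, 1584866 to 1585014) -2.43. In *plum*, which encodes a neuronal immunoglobulin superfamily receptor, 2 neighbouring rows had -2.32 and -1.83 (3R, 26471785 to 26472295 and 26472474 to 26472834). Both lie upstream of 3 other 3’ UTR peaks of *plum*, with enrichments of 0.86 to 3.07, that the differential table does not list. *ninaA*, the rhodopsin chaperone of photoreceptors (2L, 878125 to 878270), had -2.02. Its row overlaps one of *CG15824* on the opposite strand (878101 to 878311, -1.52). On average *ninaA* was at 1.78 FPKM and *CG15824* at 9.50 FPKM, and the 2 rows cannot be told apart from 1 peak counted for both genes. *tacc*, a centrosomal microtubule regulator (3R, 4733654 to 4733863), had -2.0, and *drongo*, an Arf GTPase-activating protein (2L, 833584 to 833733), -1.99. *CG43829* and *CG17648* had -2.07 and -2.04.

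The peak list was called in mutants alone, so its overlap with a row follows in part from the direction that chose the row, and it is given as a description. Over all decreased rows, 62 of 113 (54.9%) overlapped a 3’ UTR peak of the same gene in the mutant list, against 63 of 63 increased rows and 1776 of the 1832 rows of smaller change (96.9%). The other 51 decreased rows had no 3’ UTR peak of their gene called there in mutants, among them those of *CG1307*, *CG13077*, *SC35*, *plum* and *drongo*. Counting peaks of any annotation or gene on the same strand, 66 of the 113 decreased rows overlapped one. Where a peak remained, its median log2 enrichment in mutants was 2.21, against 2.61 at increased rows and 2.39 at rows of smaller change. The overlapping peak of *tacc* had 2.42, and that of *CG8858* 0.88 with an FDR of 0.0589. Decreased and increased rows both came from genes of lower expression than the rest, with median host levels of 8.15 and 8.01 FPKM, against 20.7 FPKM for rows of smaller change. Both were also shorter, with median spans of 206 and 210 bases, against 301. Their part in the size of the changes was not tested.

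The largest increase was in *CG40439* (2L, 22797548 to 22798078), with a log2 fold change of 6.07, and the mutant peak that overlaps it an enrichment of 6.70. *LKRSDH*, an enzyme of lysine breakdown (2L, 7791384 to 7791623), had 3.16, *CG5958* (2L, 7430530 to 7430589) 2.52 and *CG13315* (3L, 9097435 to 9097494) 2.33, both of only 60 bases. *Tret1-2*, a trehalose transporter (2R, 11677747 to 11678014), had 2.05, *CG30116* (2R, 18456602 to 18456781) 1.94 and *Use1*, an ER SNARE (3L, 9135709 to 9136316), 1.92. The mutant peaks at the 8 largest increases had enrichments of 1.74 to 7.61.

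Some genes had 3’ UTR rows that changed in opposite directions. Of 116 genes with 2 or more 3’ UTR rows in the differential table, 8 had rows of an FDR under 0.05 on both sides of 0, and 0 had one below -1 and one above 1. The 116 genes were counted at any FDR, and 48 pairs of rows in the table were overlapping rows of the same gene. How rare opposite changes are cannot be read from these counts. The widest span was in *tacc*, with -2.0 at the transcript end and 0.70 in a row upstream of it (3R, 4734341 to 4734580). *tau*, the microtubule-associated protein, had -0.29 (3R, 27640276 to 27641011) and, upstream of it, 0.90 (27642017 to 27642317). The gene was at 22.6, 23.2 and 20.9 FPKM in mutants and 10.5, 10.99 and 10.3 FPKM in *w1118* (log2 fold change 1.01, adjusted p = 1.7e-05 from limma). *BtbVII* had -0.54 and 0.46, *CG46385* -0.51 and 0.37, and *Gpdh1*, the glycerol-3-phosphate dehydrogenase, -0.27 and, in the more downstream row, 0.43. Of the 109 genes with a decreased 3’ UTR row, 12 had a row in another annotation class, 8 of them above 0 and 4 below.

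Host genes of decreased and of increased rows included genes that were higher and genes that were lower in mutants. Of the 109 hosts of decreased rows, 30 (27.5%) were higher and 38 (34.9%) lower in mutants at an adjusted p under 0.05 from limma, where 22.9% of all 13866 tested genes were higher and 26.7% lower. Of the 62 hosts of increased rows, 22 (35.5%) were higher and 16 (25.8%) lower. In both directions together, 62.4% of the hosts of decreased rows and 61.3% of the hosts of increased rows passed the test. Among the 1875 tested hosts of any listed 3’ UTR row 57.8% did (25.8% higher and 32.1% lower), and among all tested genes 49.6%. These differences were not tested. The median size of the log2 fold change was 0.33 for hosts of decreased rows and 0.39 for hosts of increased rows. It was 0.25 for hosts of any listed row and 0.24 for all tested genes. Of 10036 tested genes with a 3’ UTR peak in mutants, 2419 (24.1%) were higher and 2618 (26.1%) lower. The median log2 fold change of expression was 0.03 for hosts of decreased rows, 0.02 for hosts of increased rows and 0.01 for all genes tested. Enrichment is divided by the same input libraries, so the changes of a peak and of its gene are not independent measurements.

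**Figure D2:**
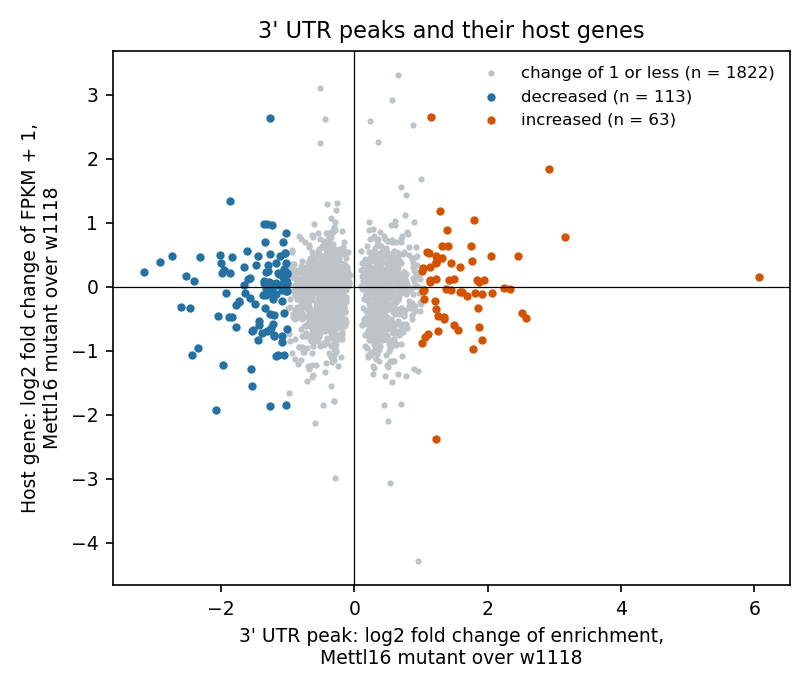
Log2 fold change of enrichment of each listed 3’ UTR peak (horizontal) against the log2 fold change of FPKM + 1 of its host gene (vertical), Mettl16 mutant over w1118, for 1998 rows. Colours mark decreased (113) and increased (63) rows and those of a change of 1 or less. Of the hosts of decreased rows 30 were higher and 38 lower, and of the hosts of increased rows 22 were higher and 16 lower.

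Some hosts moved strongly. Among genes with a decreased row, 10 of 109 were lower and 2 higher by at least 1 on the log2 scale at an adjusted p under 0.05 from limma, where 3.35% of all tested genes were lower and 2.47% higher by this rule. *CG10869* was at 66.5, 70.3 and 68.2 FPKM in mutants, against 157, 135 and 140.0 FPKM in *w1118*, so the groups did not overlap (log2 fold change -1.06, standard error 0.07, adjusted p = 2.0e-05 from limma). Its coding exon peak had a log2 fold change of enrichment of 0.97. *CG4375* was at 69.5, 74.99 and 77.0 FPKM in mutants and 235, 219 and 206 FPKM in *w1118* (log2 fold change -1.56, adjusted p = 4.1e-06 from limma). *Lst*, the fly hormone Limostatin, was at 10.5, 12.01 and 9.51 FPKM in mutants and 27.2, 25.4 and 26 FPKM in *w1118*, again without overlap. *CG13999* was at 4.46, 3.56 and 3.96 FPKM in mutants and 18.9, 17.4 and 15.4 FPKM in *w1118*, *CG43829* at 0.591, 0.845 and 0.745 FPKM in mutants and 5.44, 6.30 and 4.96 FPKM in *w1118*. *Son*, a splicing cofactor, and *MFS15*, a membrane transporter, were also lower (-1.07 and -1.85), the 2 groups of libraries lying apart for each. Their peaks had log2 fold changes of -1.15 and -1.03, the one of *MFS15* with an FDR of 0.214. *CG9344* was lower by a log2 fold change of -1.28, with a peak of FDR 0.222.

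*ND-B8*, a subunit of mitochondrial complex I, went the other way. It was at 42.1, 44.2 and 45.4 FPKM in mutants, against 5.14, 5.52 and 8.53 FPKM in *w1118* (log2 fold change 2.63, standard error 0.15, adjusted p = 1.4e-05 from limma), while its 3’ UTR peak (2L, 4454626 to 4455207) had a log2 fold change of -1.27. The mutant peak of *ND-B8* there (4454798 to 4455207) overlaps a 3’ UTR peak of another gene on the opposite strand. *Vajk1*, a cuticle protein, was at 5.19, 5.502 and 4.42 FPKM in mutants and 2.25, 0.899 and 1.16 FPKM in *w1118*, with a peak change of -1.86 and an FDR of 0.187. Other hosts with a large decrease moved little. *drongo* was at 33.2, 31.8 and 30.6 FPKM in mutants and 27.9, 26.1 and 27.8 FPKM in *w1118* (log2 fold change 0.22, adjusted p = 0.014 from limma). *SC35* was at 8.47, 8.77 and 8.78 FPKM in mutants and 7.74, 7.26 and 7.75 FPKM in *w1118* (log2 fold change 0.17, adjusted p = 0.038 from limma).

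Among genes with an increased row, 4 of 62 were higher and 1 lower by at least 1, beside the same 2.47% and 3.35% of all tested genes. *BomS1*, an immune-induced Bomanin peptide, was at 529, 789 and 557 FPKM in mutants and 169, 59.4 and 92.3 FPKM in *w1118* (log2 fold change 2.64, adjusted p = 0.00048 from limma; peak 1.15). Its relative *BomS4* was the lower one (-2.38), with a peak change of 1.23. The peaks of the 2 genes lie side by side on 2R (18383949 to 18384378 and 18384567 to 18384911). How reads were divided between such related genes is not stated, which makes both changes uncertain. *Tep2*, a thioester protein of the hemolymph, was at 48.4, 56.8 and 34.1 FPKM in mutants and 24.6, 21.3 and 19.1 FPKM in *w1118*. *twz* was at 5.77, 5.87 and 6.43 FPKM in mutants and 2.15, 2.11 and 1.99 FPKM in *w1118*. *p24-2*, a cargo receptor of the secretory pathway, was at 4.85, 5.38 and 3.45 FPKM in mutants, and in *w1118* at 2.64 FPKM in replicate 1 and listed at 0 in the other 2. The peaks of *twz* and *p24-2* had FDRs of 0.0562 and 0.174. *LKRSDH* was at 7.90, 9.96 and 7.71 FPKM in mutants and 4.07, 4.79 and 4.86 FPKM in *w1118* (log2 fold change 0.77, adjusted p = 0.00065 from limma). *CG40439*, with the largest increase of a peak, was at 12.3, 13.1 and 13.4 FPKM in mutants and 12.4, 12.3 and 10.2 FPKM in *w1118*, and *CG13315* at 581, 498 and 514 FPKM in mutants and 583, 529.8 and 519.8 FPKM in *w1118*. Neither passed the test, and their groups overlapped.

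**Figure D3:**
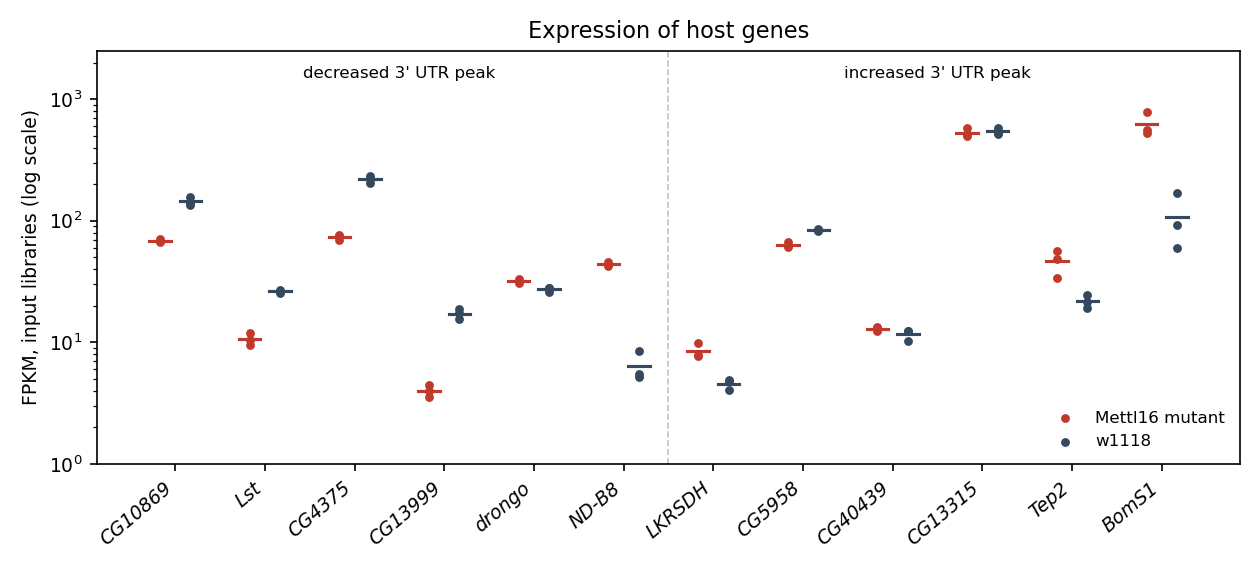
FPKM in each input library (log scale) of 6 host genes of a decreased and 6 of an increased 3’ UTR peak. Points are single libraries of Mettl16 mutants (left of each pair) and w1118 (right), bars their means, n = 3 each. CG10869, Lst, CG4375 and CG13999 lie lower and ND-B8 higher in mutants, while CG40439 and CG13315 overlap.

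Grouped by function, rows of the accessory gland and ejaculatory duct list all lay above 0 and those of the ion channel and receptor list all below. The lists were counted beside all 2008 rows, with 61.0% below 0, 5.63% decreased and 3.14% increased. The share below 0 also differed with host level, at 67.2% for hosts of 1 to 5 FPKM and 47.3% for hosts of at least 100 FPKM. The lists were not matched for host level, and its part in their rows was not tested. Of all tested genes 72.4% had a 3’ UTR peak, as did 82.6% of genes at 5 to 20 FPKM and 91.1% at 20 to 100 FPKM, and genes with a peak had on average 1.30. The hosts of each list stand beside all tested genes with a 3’ UTR peak, of which 24.1% were higher and 26.1% lower in mutants. Of 50 genes of the accessory gland and ejaculatory duct, 44 had a 3’ UTR peak, and 10 of 10 rows were above 0 (median 0.59), 3 of them increased. These were *Sfp24Ba* (1.76), *Sfp33A2* (1.25) and *Acp26Ab* (1.01), all genes of secreted seminal fluid proteins. *Dup99B*, a peptide of the ejaculatory duct related to sex peptide, had 0.59 and *Spn77Bb*, a serpin, 0.59. *NLaz*, another of the 10, had 0.73, and its expression was higher in mutants (log2 fold change 0.51, adjusted p = 0.0056 from limma). Of the 44 hosts, 38 were lower and 3 higher in mutants. *Dup99B* was at 684, 699 and 736 FPKM in mutants and 1203, 1149 and 1409 FPKM in *w1118*. *Sfp24Ba* was at 117, 140.3 and 161 FPKM in mutants and 106, 108 and 98.6 FPKM in *w1118* (log2 fold change 0.40, adjusted p = 0.017 from limma). The accessory gland markers above fell with these genes, and their part in the peak changes was not tested.

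Testis genes had rows on both sides. Of 42, 39 had a 3’ UTR peak, with a median enrichment of 2.74. Of 12 rows 7 were below 0 (median -0.18), and 31 of the 39 hosts were lower and 3 higher. *Mst84Dd* and *Mst84Dc*, neighbouring sperm tail genes on 3R, had -0.96 and -0.69, while the third gene of the cluster, *Mst84Db*, had 0.39. *r-cup*, transcribed after meiosis, had 1.5 and *vis*, a spermatocyte transcription factor, -1.22 with an FDR of 0.102. *Mst84Dd* was at 100.95, 109.7 and 117 FPKM in mutants and 92.7, 85.6 and 83.9 FPKM in *w1118*, while the testis markers were lower in mutants. Without the genes of these 2 lists, 61.3% of the remaining 1986 of 2008 rows were below 0, 112 were decreased and 59 increased. So few rows were left out that the share could hardly change. The part of these tissues in the rows of all genes was not tested.

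Most rows of neural and photoreceptor genes were below 0, as were 61.0% of all listed rows. Of 42 synaptic and neuronal genes 41 had a 3’ UTR peak, on average 3.63 each, beside 1.30 over all genes with a peak, and 14 of 17 rows were below 0 (median -0.33), 0 of them decreased or increased. *Syt1*, the calcium sensor of synaptic vesicles, had rows of -0.41 and -0.69 (2L, 2779844 to 2781043 and 2779575 to 2779725), and *CadN*, a neural cadherin, had -0.68. Of 42 ion channel and receptor genes 41 had a 3’ UTR peak (median enrichment 2.74), and 7 of 7 rows were below 0. The row of *nAChRalpha3*, an acetylcholine receptor subunit, was decreased (X, 8282096 to 8282784, -2.40), in a gene of only 0.639 to 0.693 FPKM in mutants and 0.416 to 0.787 FPKM in *w1118*. *Rdl*, the GABA receptor, had -0.59 and *Sh*, the Shaker potassium channel, -0.33. Of the 15 rows of the clock and photoreceptor list 12 were below 0 (median -0.31). The row of *ninaA*, which overlaps that of *CG15824*, was decreased. *chp*, a photoreceptor adhesion protein, had -0.74 and *Arr1*, an arrestin, -0.39. Of its 26 hosts with a peak 13 were higher in mutants and 4 lower. *chp* was at 96.0, 98.4 and 100.8 FPKM in mutants and 60.8, 54.1 and 66.7 FPKM in *w1118* (log2 fold change 0.70, adjusted p = 0.00025 from limma). Of 8 rows of flight muscle and sarcomere genes 6 were below 0, and *up*, the troponin T gene, had -0.15 in a peak of 4.49.

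**Figure D4:**
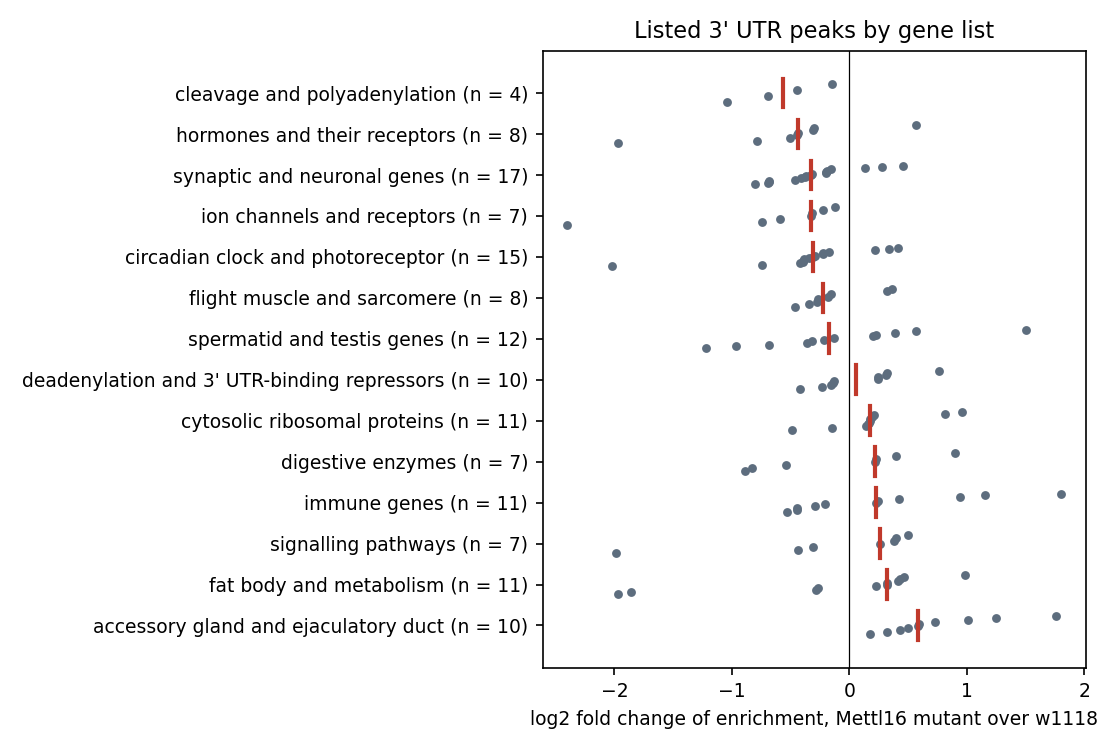
Log2 fold change of enrichment, Mettl16 mutant over w1118, of every listed 3’ UTR row in each gene list with at least 4 rows. Points are rows, red bars medians, and lists run down the page by median. All 10 rows of the accessory gland and ejaculatory duct list lie above 0 and all 7 of the ion channel and receptor list below it.

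Ribosomal protein genes had weak 3’ UTR peaks. Of 51, 40 had one, with a median enrichment of 1.33, and 9 of 11 rows were above 0 (median 0.17), up to 0.96 in *RpL30* and 0.81 in *RpLP2*. Listed 3’ UTR rows of all hosts of at least 100 FPKM had a median of 0.13. Of the 40 hosts 32 were higher and 0 lower, though *RpLP2* was at 621, 641 and 631 FPKM in mutants and 638, 588 and 672 FPKM in *w1118*, with overlap. In the cleavage and polyadenylation machinery 19 of 22 genes had a 3’ UTR peak and 4 of 4 rows were below 0. They were in *hrg*, a poly(A) polymerase (-1.04, FDR 0.233), *Pcf11*, a cleavage factor subunit (-0.69), *Pabp2*, the nuclear poly(A)-binding protein (-0.45), and *Pp1-87B*, a phosphatase of the complex (-0.15). Of its 19 hosts 3 were higher and 0 lower. Genes that act on 3’ UTRs as deadenylases or repressors had 117 peaks in 33 genes, on average 3.55 each, with a median enrichment of 2.54, and 5 of 10 rows were below 0, 0 of them decreased or increased. *bru1* had 0.31, *Syp* 0.25 and *orb2* -0.23, and all 3 were lower in mutants (log2 fold changes of -0.46, -0.49 and -0.56).

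Of 11 rows of fat body and metabolism genes 7 were above 0, with *Lst* (-1.97) and *ELOVL*, a fatty acid elongase (-1.86), as the 2 decreased ones. Of the 34 tested hosts of this list 6 were higher and 7 lower in mutants. *ELOVL* was at 40.6, 37.5 and 34.4 FPKM in mutants and 31.5, 31.4 and 33.8 FPKM in *w1118*. Immune genes had 6 of 11 rows above 0, with *Tep2* and *BomS1* increased and *BomT3* at -0.53 in a peak of 4.97. Of 47 tested immune hosts 26 were higher and 4 lower. Digestive enzymes had 4 of 7 rows above 0, and the near-identical amylase genes *Amy-p* and *Amy-d* had -0.54 and 0.89, which reads shared between them make uncertain. Of 8 rows of hormone and receptor genes, 3 of them overlapping rows of *Hr3*, 7 were below 0, and of 7 rows of signalling genes 4 were above 0. Glia genes (7 of 10 with a 3’ UTR peak) and eggshell genes (5 of 15) had no row. The eggshell and yolk markers *Cp15*, *Vm26Ab* and *Yp1* summed to 3.11 to 5.14 FPKM in mutants and 2.87 to 4.85 FPKM in *w1118*.

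Transcripts of 1 gene can end at different 3’ ends, and for some members their shares differed between the genotypes. For each row in a gene with transcripts that do and do not span the middle of the peak, the share of the gene’s FPKM in the spanning transcripts was taken in each library. Of 440 rows so measured, 28.6% had 3 mutant values that lay apart from the 3 *w1118* values. For decreased rows this was so in 5 of 17, and for increased rows in 4 of 9. The largest difference was in *CG31867*, whose peak (2L, 11144579 to 11144759) had a log2 fold change of 1.92. Its spanning transcripts held 77.3%, 56.2% and 74.4% of the FPKM in mutants, against 4.94%, 6.38% and 4.65% in *w1118*. In *CG30116* the peak was increased too (1.94) but the share was lower, 14.8%, 26.6% and 28.2% in mutants and 62.8%, 66.9% and 47.9% in *w1118*. Of the decreased rows, *CenG1A*, an Arf GTPase-activating protein, had shares of 34.96%, 34.2% and 28.7% in mutants and 36.3%, 41.8% and 54.7% in *w1118* (peak -1.73). *tacc* had 71.8%, 73.7% and 74.6% in mutants and 82.1%, 79.6% and 78.9% in *w1118*. *CG2258* went the other way, with a peak change of -1.05 and a share of 79.2% in mutants and 65.4% in *w1118* on average. In *drongo* and *SC35* the shares overlapped between the genotypes.

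**Figure D5:**
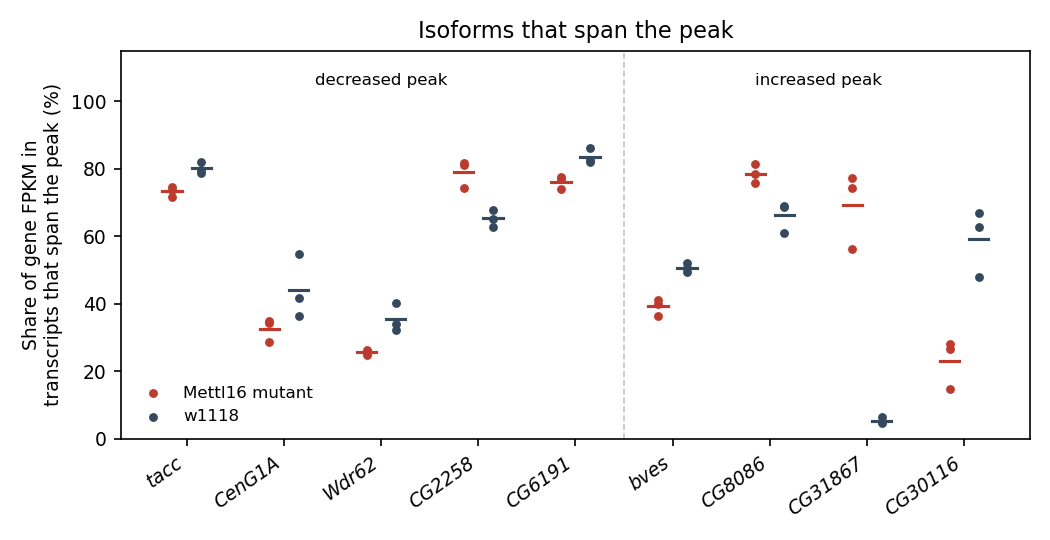
Share of a gene’s FPKM in transcripts that span the 3’ UTR peak (%), for the 5 decreased and 4 increased rows whose genotypes lay apart. Points are single input libraries of Mettl16 mutants (left of each pair) and w1118 (right), bars their means, n = 3 each. CG31867 has 56.2% to 77.3% in mutants and 4.65% to 6.38% in w1118.

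Of 14 writer and reader genes of m6A 13 had a 3’ UTR peak, with a median enrichment of 1.88 beside 2.28 over all 3’ UTR peaks, and none of these genes had a 3’ UTR row in the differential table. Over all genes, 1885 had such a row, beside 10327 with a 3’ UTR peak in mutants. The absence of rows among 13 genes is therefore not read as stable peaks. *Fmr1*, the fly homolog of the fragile X protein, had the strongest (3R, 10101420 to 10101958, 5.36), ahead of *Ythdc1*, the nuclear reader (3L, 3370451 to 3371671, 4.21). *Mettl3* had one of 2.80 at its transcript end (3R, 24034018 to 24034257). *Sam-S*, the fly S-adenosylmethionine synthetase, had 1 (2L, 113954 to 114432) of 2.56, and no row of it was listed. Other genes of signalling, the stress response and the germline had peaks of varied strength. *dpp*, a BMP ligand, had 5.01, *Gprk2*, a receptor kinase, 4.95, *syd*, a kinesin adaptor, 3.93 and *dj*, a sperm tail protein, 3.69. *PPP1R15*, an eIF2 phosphatase subunit, had 2.13, *Rheb*, an activator of TOR, 1.38, and *nos*, the Nanos repressor, 0.91 with an FDR of 0.193. *how*, an RNA-binding protein of muscle, had 3 peaks of 1.09 to 1.48, *tj*, a somatic gonad factor, 2 of 1.74 and 3.38, and *orb*, a regulator of polyadenylation in the germline, 7 of 1.27 to 3.47.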

How the data were processed

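MeRIP-seq was done on adult *Mettl16* mutant and *w1118* males, with 3 IP and 3 input libraries per genotype. Per the study’s methods, reads were trimmed with fastp and aligned with HISAT2 to a *D. melanogaster* reference, peaks were called with exomePeak and annotated with ANNOVAR, and transcripts were quantified with StringTie, in versions not given in the sources used here. The reference is given as version v107, with no build name stated beside it, so coordinates are printed as the peak files give them, with starts counted from 1. The deposited peak list holds the log2 enrichment of IP over input and a p-value and FDR for each peak, computed by the authors over the replicates together. The deposited differential table holds the log2 fold change of enrichment with its p-value and FDR from the authors’ exomePeak run. These peak caller values are described here and were not tested anew. The authors deposited FPKM per gene and isoform, and a coverage signal per isoform, from which aligned bases per input library were summed. Columns of the authors’ own expression comparisons hold fold changes and p-values from edgeR and were not used. Another 9 columns of the gene table and 18 of the isoform table were not used.

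Host genes were tested with limma 3.58.1 in R 4.3.3 on log2(FPKM + 1), two-sided, with Benjamini-Hochberg adjustment over 13866 of 21076 genes, those averaging 0.5 FPKM or more. Fold changes are on this scale, which understates those of low genes. How reads of overlapping or near-identical genes were divided between them is not stated. Other steps used Python 3.11.15, pandas 2.3.3, NumPy 2.4.6, SciPy 1.17.1 and matplotlib 3.10.9, and the fit was tested on simulated data. Precision is limited by 3 libraries per genotype. Decreased and increased mean P under 0.05 and a log2 fold change under -1 or over 1.

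Members, thresholds and 18 gene lists (614 of 620 entries matched, 16 through RefSeq synonyms) were chosen with earlier results of these data known. Named were the 12 largest decreases and 8 largest increases with FDR under 0.05 and a host of at least 1 FPKM, the 8 strongest peaks with a host of at least 5 FPKM, the 3 genes with most peaks, up to 5 genes with changes in both directions, up to 6 hosts per direction that moved by at least 1, up to 4 members per list (2 where a list had no row) and genes of a list drawn mainly from the study’s text. One of the strongest peaks is not reported here. Other genes, among them *BomS4*, *Acp26Ab*, *Sfp33A2*, *r-cup*, *vis*, *CG31867*, *CenG1A* and *CG2258*, were named after their values were seen. The measures of transcript ends and of isoform shares were also chosen after the data were seen. Sequences, motifs and stop codon positions were not analysed here.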

Additional observations from a re-analysis of the deposited data

How the results depend on the processing

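Counts of changed peaks depended on the threshold. Decreased 3’ UTR rows numbered 113, and 70 with an FDR under 0.05, 468 with a change over 0.5 and 13 with a change over 2 in size. Increased rows numbered 63, and 46, 300 and 10 under the same settings. Without rows that overlap one of the opposite strand, a setting chosen after the data were seen, 110 and 60 were left. The median log2 enrichment was 2.38 for peaks of at least 1, against 2.28 for all. The share of peaks at the transcript end was 62.2% with the outermost end of the gene and 59.6% within 10 bases of the end, against 58.3%, both settings chosen after the data were seen.

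Counts of host genes higher or lower stayed within 1.5 times of those reported under pseudocount 0.1, no filter on FPKM, median scaling and each left-out library. Leaving out 1 library gave 23 to 29 higher and 33 to 37 lower hosts of decreased rows, 20 to 22 higher and 15 to 16 lower hosts of increased rows, and 1855 to 2495 higher and 2306 to 2473 lower genes with a 3’ UTR peak. Replicate numbers did not pair the libraries (correlations of deviations of -0.0363, -0.0608 and -0.0274). With a replicate block, 24 hosts of decreased rows were higher and 35 lower, 21 hosts of increased rows were higher and 16 lower, and 2001 genes with a 3’ UTR peak were higher and 2371 lower. Of 31 host genes named by size of change, 1 lost its call under the block. Over all alternatives for these genes, 292 values kept their call, 17 lost it, 1 gained it and 0 changed direction. The motif and stop codon alternatives were not run, since no genome was used here. Peaks have 1 value per genotype pair, so their replicate error is unknown.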
